A study of Arabidopsis lyrata and Arabidopsis thaliana with 9 samples.

Results

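BELL genes encode homeodomain transcription factors of the TALE class, named for an extended loop between helices of the homeodomain. BELL proteins pair with KNOX proteins, the other plant TALE family, and the pair enters the nucleus and binds DNA where either protein alone often does so poorly. In shoots these pairs maintain the meristem, place organs along the stem and shape flowers, and OVATE family proteins bind members of either family and can hold them in the cytoplasm. The 10 genes described here are listed by locus: BEL1, PNY (BLH9), PNF (BLH8), ATH1, SAW1 (BLH2), SAW2 (BLH4), BLH1, BLH3, BLH6 and BLH10. The list was drawn up with earlier results of these data known, and it leaves out the BELL loci BLH5, BLH7 and BLH11. All 10 were found, with 1 counted model each, among the 27176 gene models of the A. thaliana tables.

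The data are directional RNA-seq counts from inflorescences of wild-type A. thaliana (strain Col-0) collected after bolting from greenhouse plants in long days, with 3 biological replicates. The series also holds 3 A. lyrata inflorescence and 3 A. lyrata leaf libraries of wild-type plants grown in long days at a fixed temperature. Their tables name genes by number, 0 of those identifiers is a member locus, and they were not used for the BELL genes. The A. thaliana data are therefore 1 group, and no change between tissues, species or treatments can be given for these genes. Totals were 6263918, 14004158 and 6330211 counts in libraries 1, 2 and 3. The 5 floral organ identity markers checked (AP1, AP3, PI, AG and SEP3) stood at 97.1 to 267 CPM (counts per 1000000 counted reads of the library), and all 4 root and seed markers stood under 1 CPM. The 2 anther and pollen markers, GRP17 and VGD1, averaged 1780 and 329 CPM. VGD1 varied widely between libraries 1, 2 and 3, at 323, 441 and 222 CPM. Whole inflorescences hold meristems, buds, open flowers and stem, so a low level may mean few expressing cells or little RNA per cell, and these cannot be told apart.

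The members differed in how alike their coding sequences are, and some come in close pairs. Coding sequences of the 45 pairs among the 10 members shared 54.2% to 78.5% of aligned bases, with a median of 57.4%. The 3 further BELL loci of the genome, BLH5, BLH7 and BLH11, were set beside them. SAW1 and SAW2 shared 78.5%, BLH3 and BLH10 shared 78.2%, and BLH6 and BLH7 shared 76.2%, while PNY and PNF shared 58.3% and BLH1 and BLH5 shared 59.0%. No other of the 78 pairs among all 13 loci exceeded 61.6%, so identity of coding bases did not set apart PNY with PNF or BLH1 with BLH5. Protein sequences were not compared, so how closely these genes are related was not tested. The 48 bases that encode the recognition helix, the part of the homeodomain that reads DNA, show this at close range. They are printed for the pairs whose reads are compared further on, except BLH1 and BLH5. All are read from TAIR10.1 on the coding strand, and capitals mark the bases that differ within the pair. The stretches lie at chr5:398327-398374 on the plus strand (PNY), chr2:11921837-11921884 on the minus strand (PNF), chr4:17373136-17373183 on the plus strand (SAW1) and chr2:10108377-10108424 on the minus strand (SAW2). Those of BLH3 at chr1:28300446-28300493, BLH10 at chr1:6810336-6810383, BLH6 at chr4:16531017-16531064 and BLH7 at chr2:7101898-7101945 are on the minus strand.
PNY: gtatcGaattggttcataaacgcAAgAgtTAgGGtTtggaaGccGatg
PNF: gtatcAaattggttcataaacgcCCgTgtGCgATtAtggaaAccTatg
SAW1: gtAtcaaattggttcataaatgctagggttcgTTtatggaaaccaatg
SAW2: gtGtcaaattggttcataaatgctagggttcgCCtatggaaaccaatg
BLH3: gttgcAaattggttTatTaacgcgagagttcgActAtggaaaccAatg
BLH10: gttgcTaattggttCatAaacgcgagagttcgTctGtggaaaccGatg
BLH6: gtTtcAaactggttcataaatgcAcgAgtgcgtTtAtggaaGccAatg
BLH7: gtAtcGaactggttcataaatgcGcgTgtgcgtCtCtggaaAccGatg
SAW1 and SAW2 differed at 3 of the 48 bases, BLH3 and BLH10 at 6, BLH6 and BLH7 at 8, and PNY and PNF at 11. BLH1 and BLH5 differed at 12, and the median over the 45 pairs of members was 9. The transcripts share few long words. Of all 50-base words, only BLH10 had any in the transcript of another locus, 0.396% of its own, and these lay in its neighbour AT1G19690. With 30-base words the share was 0.441% for SAW1, 0.526% for SAW2, 0.374% for PNY and 1.27% for BLH10, and 0 for the other 6 members. The read length is not given in the sources used here, so these shares describe the words and not the reads.

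All 10 members were present at moderate levels. Every one averaged at least 10 CPM, against 48.4% of all A. thaliana models (percentage of 27176) and 54.8% of the 84 other loci annotated with a homeobox. At 20 CPM or more there were 8 members, against 36.0% of all models. Over all 13 BELL loci of the genome, 11 (84.6%) averaged at least 10 CPM, and the median was 28.6 CPM. The members were neither rare nor among the most abundant RNAs: BLH1, the highest, ranked 2747 by CPM and PNF, the lowest, ranked 12643. Their median level was 31.8 CPM, against 15.4 CPM for the other homeobox loci and 8.91 CPM for all models. Per kilobase of transcript the medians were closer, at 12.5 CPM per kilobase for the members, 7.38 for the other homeobox loci and 5.64 for all models with a length. Together they took 370, 384 and 375 CPM in libraries 1, 2 and 3, a mean of 376 ± 7.33 CPM (SD, n = 3). These values rest on 297 to 2194 reads per gene over the 3 libraries.

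**Figure D1:**
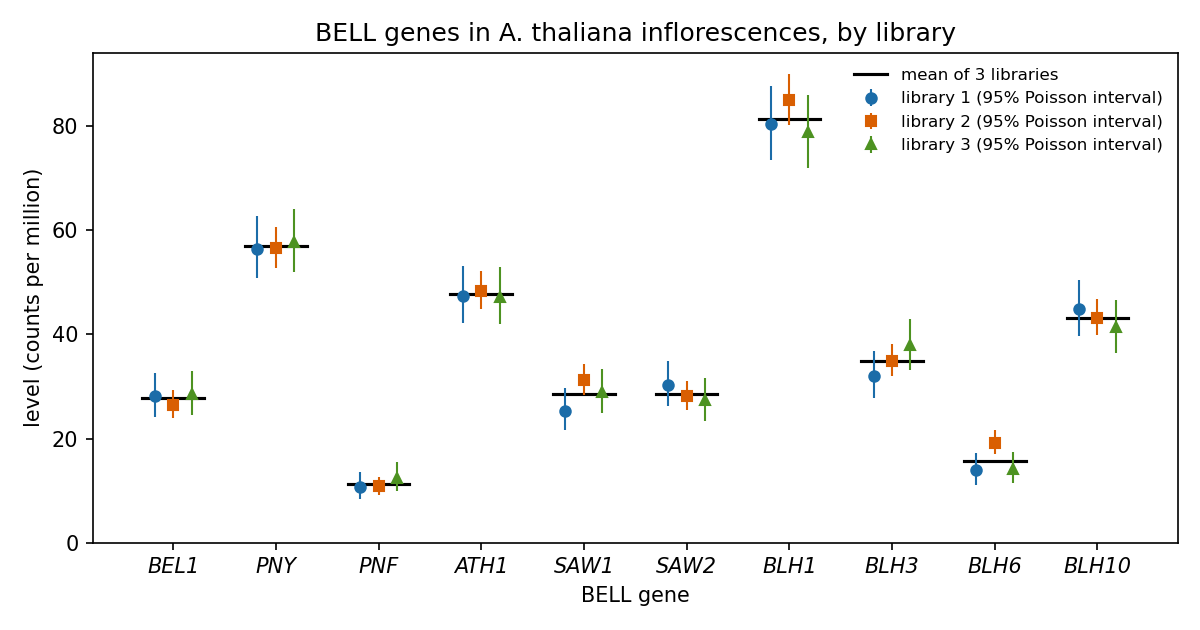
Level of each of the 10 BELL genes in CPM (vertical axis, from 0) in the 3 A. thaliana inflorescence libraries, with 95% exact Poisson intervals for counting error and the mean as a bar. BLH1 stands near 81.4 CPM and PNF near 11.3 CPM, and library 2 stands apart from the others in BLH6.

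The meristem and stem genes PNY and PNF differed widely in level. PNY (PENNYWISE, also REPLUMLESS), which acts in phyllotaxis, internode growth and the replum of the fruit, is AT5G02030, a locus at chr5:395567-399125 on the plus strand with 4 exons in the counted model. It had 56.5, 56.6 and 57.8 CPM in libraries 1, 2 and 3. The libraries were nearly equal, and the mean was 57.0 ± 0.723 CPM (SD, n = 3). PNF (POUND-FOOLISH), which acts redundantly with PNY in the meristem's response to floral signals, is AT2G27990, a locus at chr2:11921350-11924748 on the minus strand with 5 exons in the counted model. It had 10.7, 10.8 and 12.5 CPM, the lowest of the 10, with a mean of 11.3 ± 1.01 CPM (SD, n = 3). Per kilobase of transcript, PNY was 5.41, 5.38 and 4.74 times as high as PNF in libraries 1, 2 and 3, a mean of 5.17 ± 0.375 (SD, n = 3). PNY thus held 83.8% ± 1.02 of the pair's level per length (SD, n = 3). PNY was the higher in 3 of 3 libraries.

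ATH1 (ARABIDOPSIS THALIANA HOMEOBOX GENE 1), which acts at the base of the stem and in the control of flowering and is reported in the annotation to bind STM, BP and KNAT6, is AT4G32980. The locus lies at chr4:15914670-15918153 on the minus strand, with 6 exons in the counted model. It had 47.4, 48.4 and 47.2 CPM, a mean of 47.7 ± 0.636 CPM (SD, n = 3), and no library stood apart. Its promoter, taken as 250 bases before to 50 after the start of the counted model, was the only one among the 10 members with a CArG box, the site type bound by MADS-domain factors such as SEP3. A CArG box, searched as its strict form on both strands, was found in 3.04% of 26680 promoters of the same length. In ATH1 the box lies at chr4:15918208-15918217, on the minus strand, beginning 64 bases before the start. It is printed in capitals with its flanks (chr4:15918198-15918227) because binding by a floral MADS factor is the subject of the series.
ATH1 promoter: catcaattctCCTTAAATGGctaaaaaaga
No binding data were used here, and the match is a description of the letters. The word TGACAG, a core bound by KNOX and BELL proteins, occurred on either strand in 0 member promoters, against 6.90% of all promoters. The G-box CACGTG occurred in the promoter of BLH10 alone, 193 bases before the start of its counted model, against 7.85% of all promoters. That model starts at position 6812757, inside the locus, since other annotated transcripts start further upstream. No member promoter held more than 1 of these matches, so none overlapped another.

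BEL1, the founding gene of the family, specifies the integuments of the ovule, and the annotation records that its protein binds AG and SEP dimers. It is AT5G41410, a locus at chr5:16579936-16584077 on the plus strand with 4 exons in the counted model, and had 28.1, 26.5 and 28.6 CPM in libraries 1, 2 and 3. The spread was small, with a mean of 27.7 ± 1.10 CPM (SD, n = 3). Of 8 further genes of ovule development listed beside it, 7 stood at 10 CPM or more, against the same 48.4% of all models. The list's median was 16.5 CPM, and it also holds organ identity genes active outside ovules. AG, the stamen and carpel identity gene, was the highest per length at 50.1 ± 1.87 CPM per kilobase. INO, a YABBY gene of the outer integument, was the lowest at 2.39 ± 0.107 CPM per kilobase (SD, n = 3 each), while BEL1 itself stood at 10.5 ± 0.417 CPM per kilobase (SD, n = 3).

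SAW1 and SAW2 (SAWTOOTH 1 and 2), which redundantly limit growth of leaf margins and repress the KNOX gene BP (KNAT1) in leaves, had like CPM. SAW1 is AT4G36870, a locus at chr4:17368915-17374011 on the plus strand with 4 exons in the counted model, and had 25.4, 31.2 and 28.9 CPM in libraries 1, 2 and 3. SAW2 is AT2G23760, a locus at chr2:10107707-10113327 on the minus strand with 4 exons in the counted model, and had 30.3, 28.2 and 27.3 CPM. The means were 28.5 ± 2.93 CPM for SAW1 and 28.6 ± 1.54 CPM for SAW2 (SD, n = 3 each), and their ranges overlapped. SAW1 took 45.6% of the pair's reads in library 1 (95% exact binomial interval 40.2% to 50.9%), 52.5% in library 2 (49.1% to 56.0%) and 51.4% in library 3 (46.1% to 56.7%). Neither gene was the higher in all libraries by reads, and the interval of each library included an equal split of reads. An equal split of reads is not an equal level, since the longest SAW1 transcript is longer, at 2979 against 2502 bases. Per kilobase of the longest transcript, SAW1 was the lower in every library, with 45.5% ± 3.70 of the pair's level (SD, n = 3). With the lengths of the counted models, 2655 and 2408 bases, its mean share was 47.4%. That SAW1 was lower in every library therefore holds for the longest transcripts only.

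The remaining members are BLH genes with roles less tied to flowers. BLH1, which pairs with KNAT3 and is moved to the cytoplasm by OFP1 according to the annotation, is AT2G35940, a locus at chr2:15088762-15092415 on the minus strand with 6 exons in the counted model. It had 80.5, 85.0 and 78.8 CPM in libraries 1, 2 and 3, the highest CPM of the 10 genes in each of them, with a mean of 81.4 ± 3.22 CPM (SD, n = 3). An annotated antisense RNA, AT2G35945, covers 1246 bases of its locus and is not in the counts used here. Whether counting used strand is not given, so part of the BLH1 level may come from that RNA, which was not tested. BLH5, the relative set beside BLH1, had 3.67, 2.21 and 1.42 CPM, and BLH1 took 97.1% ± 1.33 of the pair's reads (SD, n = 3).

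BLH3 is AT1G75410, a locus at chr1:28299786-28302728 on the minus strand with 5 exons in the counted model, and had 32.1, 35.0 and 37.9 CPM in libraries 1, 2 and 3. BLH10, whose protein is annotated to bind the light-sensing protein PLP, is AT1G19700, a locus at chr1:6809585-6813063 on the minus strand with 5 exons in the counted model, and had 44.9, 43.2 and 41.4 CPM. BLH3 was the lower of this close pair in every library. It averaged 35.0 ± 2.91 CPM against 43.2 ± 1.74 CPM for BLH10 (SD, n = 3 each). BLH3 held 42.3% ± 3.01 of the pair's level per length (SD, n = 3), so both copies contributed sizeable amounts of RNA.

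BLH6, which with KNAT7 restrains secondary wall formation in stems, is AT4G34610, a locus at chr4:16530346-16533362 on the minus strand with 5 exons in the counted model. It had 13.9, 19.2 and 14.2 CPM in libraries 1, 2 and 3, a mean of 15.8 ± 2.98 CPM (SD, n = 3). Library 2 stood above the other two, and its 95% exact Poisson interval of 17.0 to 21.6 CPM overlapped that of library 1 (11.1 to 17.1 CPM) and of library 3 (11.4 to 17.5 CPM) only at the edges. BLH7, its close relative outside the 10 genes, had 40.9, 41.9 and 44.2 CPM, so BLH6 was the minor copy with 25.4%, 31.4% and 24.3% of the pair's reads. The third further locus, BLH11, was scarce, at 0.639, 1.07 and 1.11 CPM. All intervals cover counting error only.

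**Figure D2:**
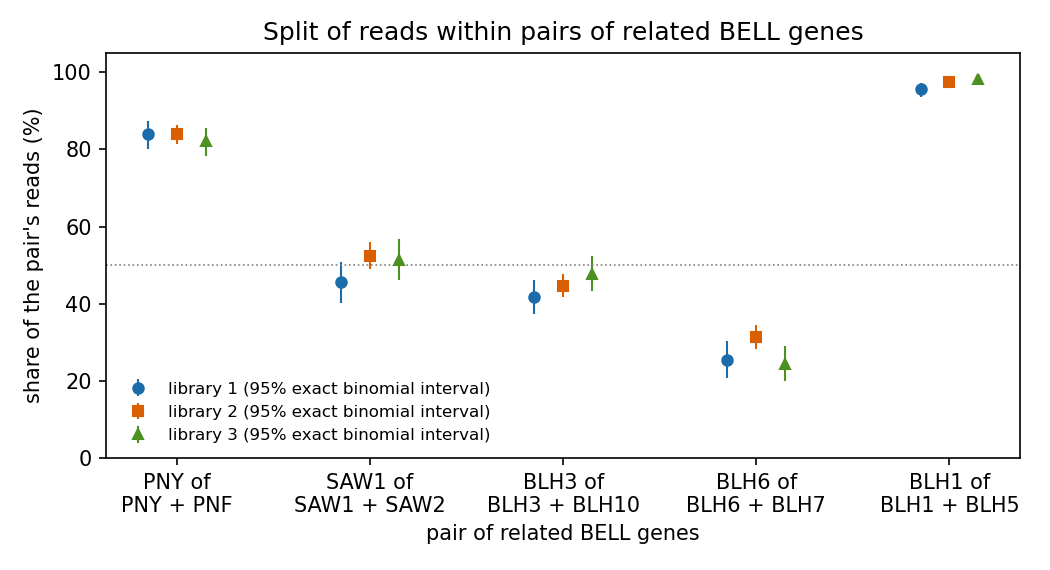
Share of the reads of each of 5 pairs of related BELL genes that came from the gene named first (vertical axis, percent), by library, with 95% exact binomial intervals. PNY and BLH1 held most of their pairs' reads, and the SAW1 intervals include an equal split of reads (dotted line). BLH3 held 41.7% to 47.8%, and BLH6 held 24.3% to 31.4%. Shares are not scaled for transcript length.

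Levels of different genes are comparable only per length, and on that scale the 10 members spanned a 5.34-fold range. The order, in CPM per kilobase of the longest annotated transcript, was BLH1 (27.2 ± 1.08), PNY (26.3 ± 0.333), ATH1 (19.6 ± 0.262), BLH10 (18.6 ± 0.748), BLH3 (13.6 ± 1.14), SAW2 (11.4 ± 0.617), BEL1 (10.5 ± 0.417), SAW1 (9.57 ± 0.984), BLH6 (5.92 ± 1.12) and PNF (5.10 ± 0.453; SD, n = 3 each). The highest members were therefore BLH1, PNY and ATH1, and PNF was the lowest. Part of the BLH1 level may come from the antisense RNA over its locus, which was not tested. Library ranges overlapped in 3 of the 9 neighbouring pairs: BLH1 and PNY, BEL1 and SAW1, and BLH6 and PNF. They were apart in the other 6, and in 42 of all 45 pairs of members. The share among pairs of all models was not computed, so these counts show nothing particular to the members. In those 6 pairs the higher gene was the higher in 3 of 3 libraries, and in the other 3 pairs it was so in 2 of 3. Both genes of a pair are measured in the same libraries, and the exact two-sided sign-flip permutation test paired by library gave p = 0.25 for the 6 pairs (Benjamini-Hochberg adjusted p = 0.375 for 9 pairs). Treated as unpaired, as first chosen for these pairs, the exact permutation test gave p = 0.1 for the 6 pairs (adjusted p = 0.15) and ignores the shared libraries. These are the smallest p-values that 3 libraries allow, so no neighbouring pair could pass a threshold of 0.05. With coding length in place of transcript length, ATH1 and PNY changed places, and with the length of the counted model BEL1 and SAW1 did. On this scale 9 of the 10 members, all but PNF, lay above the median of all models.

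KNOX genes, the partners, were present at levels of the same order. The class I genes maintain meristems, and the class II genes act mainly in differentiating organs. Per length, the 10 BELL genes summed to 146, 151 and 148 CPM per kilobase in libraries 1, 2 and 3, against 188, 200 and 196 CPM per kilobase for the 9 KNOX genes. The BELL sum was 0.759 ± 0.0121 of the KNOX sum (SD, n = 3), and lower in each library. This ratio depends on the length scale, since without it the sums were nearly equal, at a ratio of 1.01 ± 0.0119 (SD, n = 3). Against class I alone the BELL sum was 1.79 ± 0.126 times as high, and against class II alone 1.35 ± 0.0391 times as high (SD, n = 3 each). These sums cover 10 BELL genes but only 4 genes in each class. By single genes the direction was the other way. The median was 12.5 CPM per kilobase for the BELL genes, against 22.0 for class I and 19.1 for class II.

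Single KNOX genes stood both above and below the BELL range. KNAT3, the class II partner of BLH1, was the highest TALE gene of either list at 61.2 ± 2.21 CPM per kilobase, against 27.2 ± 1.08 for BLH1 (SD, n = 3 each). KNAT1 (BREVIPEDICELLUS, BP), a stem and pedicel gene and partner of PNY, stood at 34.2 ± 2.24, and STM, which keeps the shoot meristem undifferentiated, at 30.2 ± 3.39 CPM per kilobase (SD, n = 3 each). The library range of KNAT1 lay above that of PNY, and that of STM overlapped it. KNAT4 stood at 20.4 ± 1.62, KNAT5 at 17.9 ± 2.03, KNAT6, a boundary gene, at 13.8 ± 1.86, and KNAT2 at 4.75 ± 0.734 CPM per kilobase (SD, n = 3 each). KNATM, which lacks a homeodomain and binds BELL proteins, was the lowest at 2.50 ± 0.451 CPM per kilobase (SD, n = 3). KNAT7, the partner of BLH6, had 10.7, 17.7 and 17.1 CPM in libraries 1, 2 and 3, or 9.96 ± 2.55 CPM per kilobase (SD, n = 3). Its level was low in library 1, whereas that of BLH6 was high in library 2 alone.

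**Figure D3:**
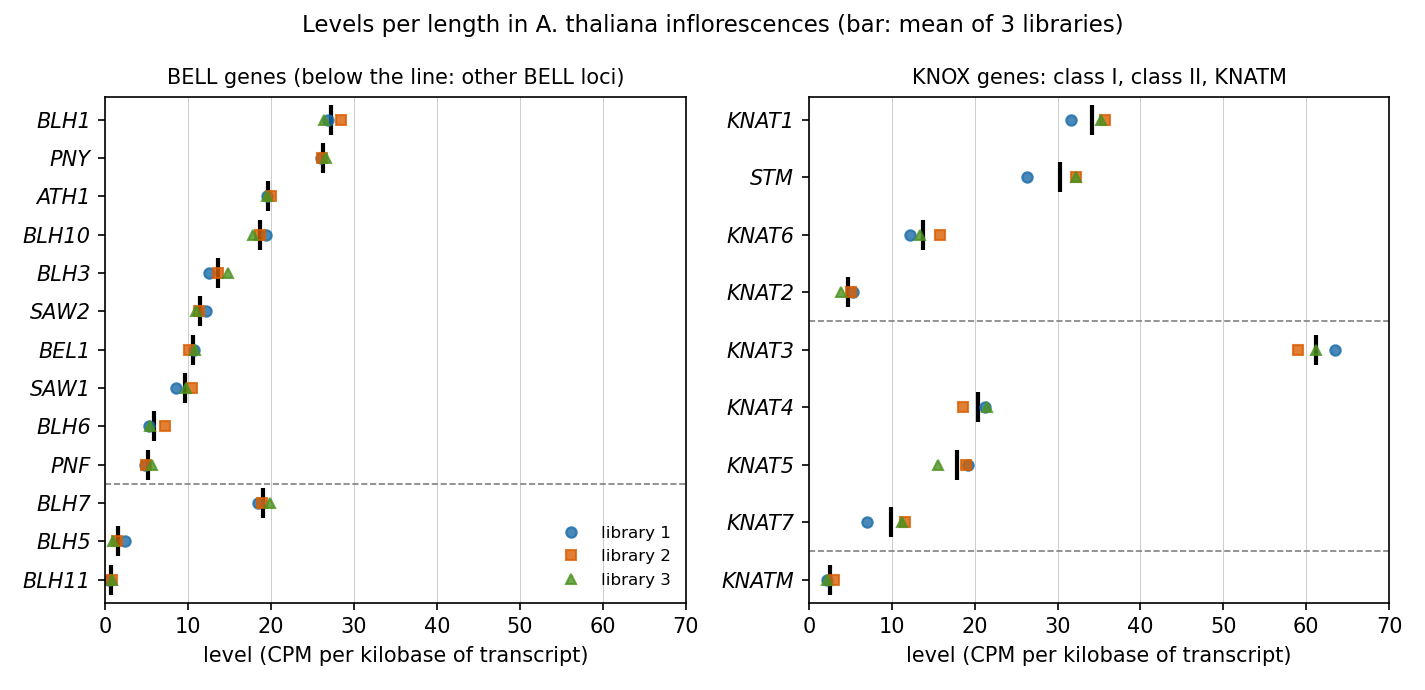
Levels in CPM per kilobase of transcript (horizontal axis) of BELL genes (left panel, with the 3 further BELL loci under the dashed line) and KNOX genes (right panel, class I above class II above KNATM) in each A. thaliana inflorescence library, with the mean as a bar. BELL means reach 27.2 and KNOX means reach 61.2, that of KNAT3.

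OVATE family genes, whose products bind BELL and KNOX proteins, were lower. Of 15 listed, 4 stood at 10 CPM or more, against 48.4% of all models, and the list's median was 2.57 CPM. OFP15 was the highest at 18.5 ± 0.884 CPM per kilobase (SD, n = 3). OFP3 had no count in 26598287, which allows up to 0.113 CPM for counting error. OFP1, the annotated partner of BLH1, was named after its value was seen and stood at 6.23, 6.07 and 5.53 CPM in libraries 1, 2 and 3.

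Genes that act with PNY and its relatives in boundaries, stems and fruits ranged widely. Of 9 boundary and stem genes, 4 stood at 10 CPM or more, again against 48.4% of all models. PME5, a pectin methylesterase linked to PNY in the stem, was the highest at 140 ± 7.26 CPM per kilobase (SD, n = 3). LFY, the floral meristem identity gene, was the lowest and had 5.43, 2.07 and 2.05 CPM in libraries 1, 2 and 3. Its mean of 3.18 CPM was 2.06 CPM without library 1. Of 4 fruit genes, 2 stood at 10 CPM or more. ALC, a gene of the valve margin, was the highest at 31.9 ± 0.901 CPM per kilobase and IND, which specifies that margin, the lowest at 1.01 ± 0.572 CPM per kilobase (SD, n = 3 each). ALC overlaps a gene on the opposite strand, so its level is less certain. The secondary wall list held REV, a target of BLH6 and KNAT7, and the cellulose synthase genes CESA4, CESA7 and CESA8. All 4 stood at 10 CPM or more, against 48.4% of all models. REV was the highest at 29.1 ± 1.44 and CESA7 the lowest at 13.1 ± 0.576 CPM per kilobase (SD, n = 3 each).

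The BELL genes differed in how far they varied between replicate libraries, with PNY and ATH1 the most even and BLH6 the least. The SD over the 3 libraries was 4.71% of the mean at the median of the 10 members, against 7.20% for the 9897 models with means in the members' range of 11.3 to 81.4 CPM. Of the 10 members, 6 lay below that 7.20% and 4 above it (BLH6, SAW1, PNF and BLH3). The chi-square of the counts against the library totals, divided by its degrees of freedom, averages near 1 when libraries differ only by counting. With 3 libraries, single values scatter widely and most of them then lie below 1. A value or median below 1 therefore does not mark genes as more even than counting gives. This statistic's median was 0.593 for the 10 members, against 1.32 for all 18970 models with at least 5 expected counts in every library. The statistic was above 1 in 4 members, against 58.6% of those models. PNY and ATH1 had the lowest values, 0.0643 and 0.0834, lower than in all but 3.43% and 4.52% of models in the members' range. BLH6 had the highest at 5.26 and SAW1 the next at 2.52, while BLH3 stood at 1.53 and BLH1 at 1.23. For KNOX genes the median SD was 11.3% of the mean and the median chi-square per degree of freedom 2.75. Their means ran from 2.13 to 125 CPM, beyond the members' range on either side, so the 2 families are not matched for level. For the 46 other homeobox loci of at least 10 CPM these medians were 7.76% and 2.29. The difference between BELL and KNOX genes was not tested.

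**Figure D4:**
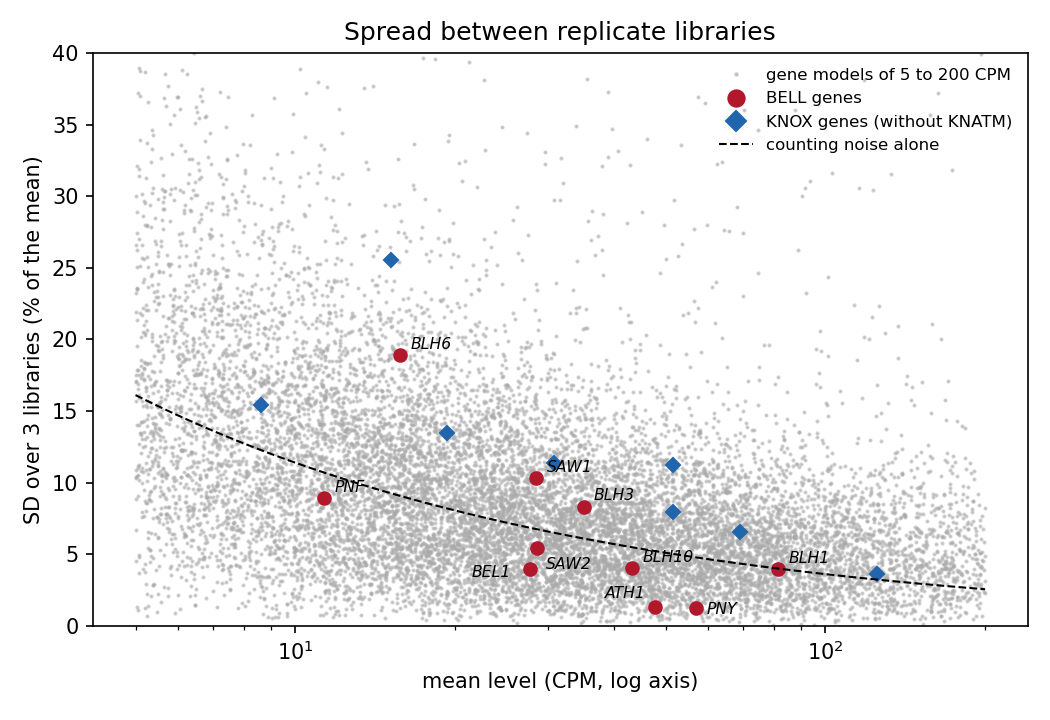
SD over the 3 A. thaliana inflorescence libraries as a percentage of the mean (vertical axis) against mean level (CPM, log axis) for BELL genes (circles), KNOX genes other than KNATM (diamonds) and all models of 5 to 200 CPM (grey), with the SD that counting alone gives as a dashed line. PNY and ATH1 lie lowest among the BELL genes, and BLH6, SAW1 and BLH3 lie above the line.

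No library carried the family as a whole. Of the 10 members, 2 were highest in library 1, 4 in library 2 and 4 in library 3, against 34.9%, 28.9% and 36.2% of models of at least 1 CPM. Without library 3, 7 members were highest in library 2, against 48% of those models. Without library 1, 6 members were highest in library 2, against 48.7% of those models. The log2 ratio of library 2 over library 3, on CPM plus 0.5, had a median of 0.04 over members and ran between -0.20 in PNF and 0.42 in BLH6, against a median of -0.01 over all models of at least 1 CPM. BLH6 was thus the member with the largest difference between these libraries, and it was not low in library 3 alone, since library 1 was as low.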

How the data were processed

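RNA was extracted with a plant spin-column kit and made into directional libraries, per the labels' protocols. The authors deposited raw counts per gene model, 1 table per library. The build was TAIR10, per the submitters' processing notes. For the aligner, counting tool and use of strand, nothing is given in the sources used here. Names, positions, lengths and sequences come from the TAIR10.1 annotation and genome, which held transcripts for 26681 of 27176 models. Its reference proteins were not used here. The order rests on lengths that need not equal those the authors counted over.

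CPM used raw library totals. Replicate dispersion was estimated with edgeR 4.0.16 in R 4.3.3 (filterByExpr, TMM, intercept only, 17301 models) and checked on simulated counts. DESeq2 1.42.0 was an alternative. Other steps used Python 3.11.15, scipy 1.17.1 and Biopython 1.88. Neighbouring members were compared with an exact sign-flip test paired by library, added after seeing the data to the unpaired exact test chosen first. The quoted p-values are the smallest that 3 libraries allow, concern these libraries only and do not measure the size of a difference. Neighbours were set by the same values that were then tested.

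Named genes were all BELL and KNOX genes and, of each further list, the highest and lowest per length. Members and lists were chosen with earlier results of these data known. Genes with a similar pattern were not sought, because 3 libraries of 1 group give none.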

Additional observations from a re-analysis of the deposited data

How the results depend on the processing

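No paired analysis was possible because the BELL genes are named in the tables of 1 group only, so no groups of samples were compared. Neighbouring genes in the order are paired by library, and the paired test in the report was added after seeing the data. Its p was 0.25 for 6 pairs (exact sign-flip permutation), against 0.1 with the test chosen first, which treats the values as unpaired. With TMM scaling or DESeq2 size factors, every member's mean and the summed level moved by less than 1 SD, and the order per length had no change. Leaving out 1 library gave a median member level of 31.4 to 33.3 CPM, against 31.8 CPM, and 6 or 7 members highest in library 2, against 4 of 10 with all libraries. Among all models of 1 CPM or more, library 2 exceeded library 3 in 48.7% and library 1 in 48%. Without length scaling, SAW1 held 49.8% of its pair and BLH1 97.1% of its pair with BLH5, against 45.5% and 94.6%, and with coding length BLH3 held 45.4% of its pair. The ratio of BELL to KNOX sums was 0.670 with coding length and 1.01 with no length scaling. Alternatives added after seeing the data gave 0.786 with the length of the counted model and 0.869 with the 3 further BELL loci included. The edgeR biological coefficient of variation had a median of 0.0601 over members, against 0.0746 over all models that passed the filter, and the members' median was 0.102 with DESeq2. Members rested on 297 reads or more, whereas BLH5, BLH11 and several OVATE family genes rested on few reads.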
